A study of Mus musculus with 36 samples.

Results

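Lungs of mice given small sheets of graphene oxide, marked S, were compared with lungs of mice given ultrasmall sheets, marked US, at day 7 after the dose. The comparison held 3 libraries against 3, chosen by their labels from 36 libraries in all, and covered the 16903 of 46078 genes in the count table that passed a filter on low counts. The study asked if lung responses depend on how wide the sheets are. Graphene oxide is the oxidised form of graphene, a sheet of carbon. All animals were wild type female C57BL/6 mice, 10 weeks old at day 7, and each received a single intranasal dose of 50 μg. Lungs of the same day from mice given the dextrose carrier alone (D, 0 μg) and from mice given large sheets (L, 50 μg), 3 libraries each, are set beside as a reference. S and US lungs of days 1 and 28 (mice of 9 and 13 weeks, 3 libraries per group) served for comparisons between days. The tissue was taken as small pieces of every lobe after the large airways were cut away, so each library is a mixture of cell types in which fewer cells of a type and less RNA per cell cannot be told apart. The labels tie no library to an animal and do not say that libraries came from separate animals, so the p-values here rest on a spread that may be technical.

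Mammalian cells keep time with a loop of transcription factors. BMAL1 (gene Arntl) pairs with CLOCK or with NPAS2 and switches on the genes of its own repressors, the PER and CRY proteins, and of the nuclear receptors REV-ERBα and REV-ERBβ (genes Nr1d1 and Nr1d2), which in turn hold Arntl and Npas2 down. The same activators drive the output factors DBP, TEF and HLF, so over a day Arntl and Npas2 run opposite to Dbp, Per3 and Nr1d2. In the lung this clock is known to run in airway and other cells and to set the daily rhythm of chemokine genes, among them Cxcl5, whose product attracts neutrophils.

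Among the 6 libraries, 5 had total counts of 17479799 to 22177533 and S replicate 2 had 80566751, 4.13 times the median of the other 35 libraries. On the first principal component of the 6 libraries, which held 41.3% of the variance, US replicate 2 scored 16.9 and lay among the S libraries (4.0, 20.7 and 23.9), whereas US replicates 1 and 3 scored -26.5 and -39.0. Replicates of a group differed by more than sampling noise (chi-square per degree of freedom 15.7 to 42.0), so none was counted as a duplicate. Of the defining markers of lung, Sftpc (a surfactant protein of alveolar type 2 cells) lay at 17600 to 24500 CPM, Scgb1a1 (club cells) at 23200 to 35800 CPM and Ager (alveolar type 1 cells) at 2180 to 3100 CPM in the 6 libraries.

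In S lungs the genes of the circadian clock stood at other levels than in US lungs: the activators Npas2 and Arntl were higher and the output factors Dbp, Hlf and Tef, with Per2, Per3 and Nr1d2, were lower. Few genes outside the clock passed the threshold, and among these the neutrophil-attracting chemokine Cxcl5 had the largest fold change. The edgeR quasi-likelihood test called 24 genes at an adjusted p under 0.05, which is 0.142% of the genes tested, with 11 higher in S (0.0651%) and 13 lower (0.0769%). At an unadjusted p under 0.05 there were 2223 genes (13.2%), 1056 higher and 1167 lower. The 3 S libraries lay entirely above the 3 US libraries in 11.1% of genes and entirely below them in 5.79% (16.8% in all), and were on 1 side in all 24 called genes. The count depended on single libraries: it was 12 without S replicate 2, 14 without S replicate 3, 11 without US replicate 1, 75 without US replicate 2 and 12 without US replicate 3. The balance of directions moved too, with 17 higher and 58 lower without US replicate 2, 21 and 13 without the filter on low counts, and 25 and 10 in limma on log2(TPM + 1) without a filter. DESeq2 called 91 genes, 0.584% of the 15590 to which it gave an adjusted p, and these included all 24.

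**Figure D1:**
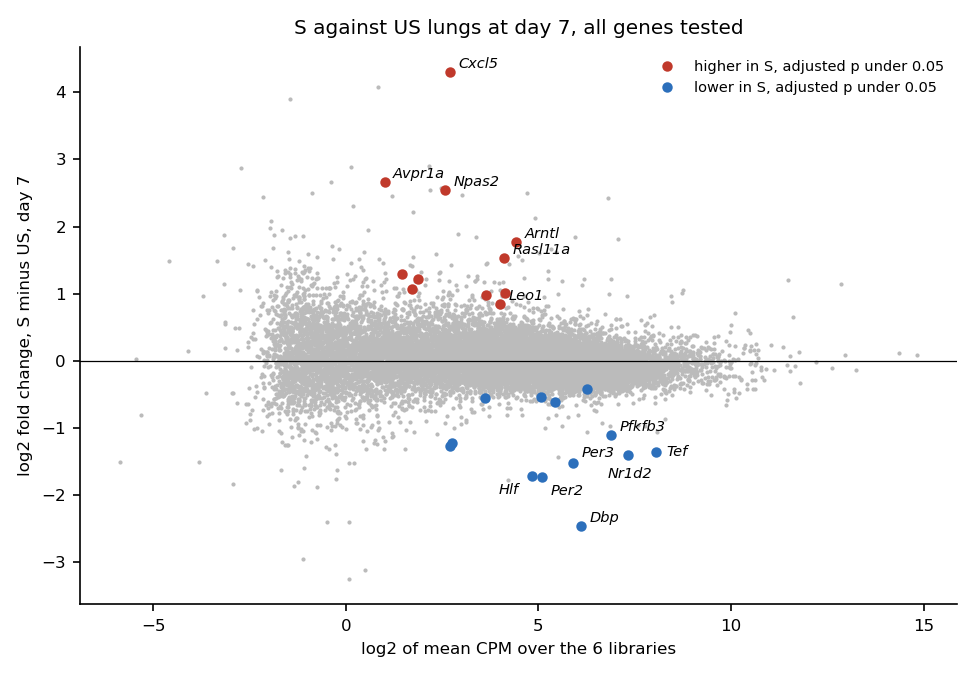
Log2 fold change of S over US at day 7 against the log2 of the mean CPM over the 6 libraries. Each grey point is a gene with a count in these libraries, red points are the 11 genes higher in S and blue points the 13 lower at an adjusted p under 0.05, and Cxcl5 lies at the top and Dbp lowest among the called genes.

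Of 19 clock genes, all of which were tested, 2 rose, 6 fell and 11 were not called in S against US. The median log2 difference of the 19 was -0.59, beside -0.01 over all genes tested. Levels are given as CPM, the count scaled to the total of its library, and differences as fitted log2 values ± standard error (SE). The SE was derived from the test, as the absolute log2 value divided by the square root of its F statistic. The summed CPM of the 19 genes was 810 to 946 in S and 1400 to 1900 in US, without overlap.

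The activating arm was higher in S. Npas2, the partner of BMAL1 that can stand in for CLOCK, was at 9.23, 10.6 and 10.9 CPM in the S libraries and 1.51, 2.46 and 1.26 CPM in the US libraries. It rose 5.83-fold (log2 2.54 ± 0.32, adjusted p = 5.06e-05). Arntl was at 29.1, 33.3 and 37.2 CPM in S and 10.2, 12.1 and 6.71 CPM in US with a wide gap between the groups. It rose 3.40-fold (1.76 ± 0.28, adjusted p = 0.00129). Clock, the third activator, lay at 80.4 to 95.9 CPM in S and 70.7 to 89.5 CPM in US, and its difference was 0.02 ± 0.16 (adjusted p = 0.968).

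The period genes, whose proteins repress the activators, were lower in S. Per3 was at 34.0, 32.7 and 27.9 CPM in S and 92.2, 71.7 and 101.3 CPM in US, and fell 2.86-fold (-1.52 ± 0.21, adjusted p = 0.000235). Per2 was at 16.8, 17.7 and 14.2 CPM in S and 51.8, 31.8 and 73.7 CPM in US, and fell 3.30-fold (-1.72 ± 0.33, adjusted p = 0.0144). The US libraries differed among themselves in both genes, and US replicate 2 was the closest of them to S. Per1 overlapped between the groups (28.3 to 80.9 CPM in S, 58.9 to 134.2 CPM in US) and had a difference of -1.06 ± 0.43 (adjusted p = 0.319). Of the cryptochrome genes, the other repressors of the loop, Cry2 lay at 54.1 to 61.9 CPM in S and 80.7 to 92.4 CPM in US without overlap, yet its difference of -0.59 ± 0.16 missed the threshold (adjusted p = 0.17). Cry1 differed by 0.10 ± 0.19.

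The gene of the nuclear receptor REV-ERBβ, Nr1d2, was at 90.9, 95.8 and 83.9 CPM in S and 238, 188 and 273 CPM in US. It fell 2.63-fold (-1.40 ± 0.21, adjusted p = 0.000554). Its relative Nr1d1 lay at 110.8 to 191.2 CPM in S and 256 to 304 CPM in US, and its difference of -0.97 ± 0.35 was not called (adjusted p = 0.287).

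The output factors fell together. Dbp, a leucine zipper factor with a strong daily rhythm, was at 24.4, 25.2 and 15.1 CPM in S and 114.9, 102.6 and 131.9 CPM in US. It fell 5.49-fold (-2.46 ± 0.50, adjusted p = 0.0247), the largest fall among the called genes. Hlf, of the same family, was at 12.5, 15.6 and 12.6 CPM in S and 46.1, 31.0 and 54.0 CPM in US. It fell 3.27-fold (-1.71 ± 0.19) and had the smallest adjusted p of all genes tested (7.52e-06). Tef, the remaining member, was at 161, 150 and 145 CPM in S and 389, 305 and 446 CPM in US, and fell 2.55-fold (-1.35 ± 0.18, adjusted p = 7.82e-05). In Hlf and Tef the US libraries were more spread than the S libraries, and in Dbp S replicate 3 lay below the other S libraries. Nfil3, a repressor that competes with DBP for its sites, lay at 12.9 to 19.3 CPM in S and 8.01 to 12.0 CPM in US, a difference of 0.76 ± 0.33 that was not called (adjusted p = 0.34).

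The other clock genes were not called. Bhlhe40, a repressor of the loop, lay at 63.3 to 66.6 CPM in S and 90.0 to 106.4 CPM in US (-0.65 ± 0.16, adjusted p = 0.107; DESeq2 called it with an adjusted p of 0.0259), and its relative Bhlhe41 differed by -0.44 ± 0.19. Ciart, a repressor of BMAL1, and Usp2, a clock-driven ubiquitin protease, differed by -0.48 ± 0.27 and -0.45 ± 0.28. At an unadjusted p under 0.05, 11 of the 19 genes were lower and 3 higher, beside 6.9% and 6.25% of all genes.

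Hlf, Npas2, Per3, Nr1d2 and Arntl kept their call in all 16 alternative fits. Tef lost it only in the fits of TPM values (highest adjusted p = 0.553), while Per2 and Dbp kept theirs in 1 of the 6 fits that left out a library, that without US replicate 2 (highest adjusted p 0.241 and 0.27). Lights were on from 7 am to 7 pm per the labels. The hour of death of each animal is not given in the sources used here, and its part in the clock differences was not tested.

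**Figure D2:**
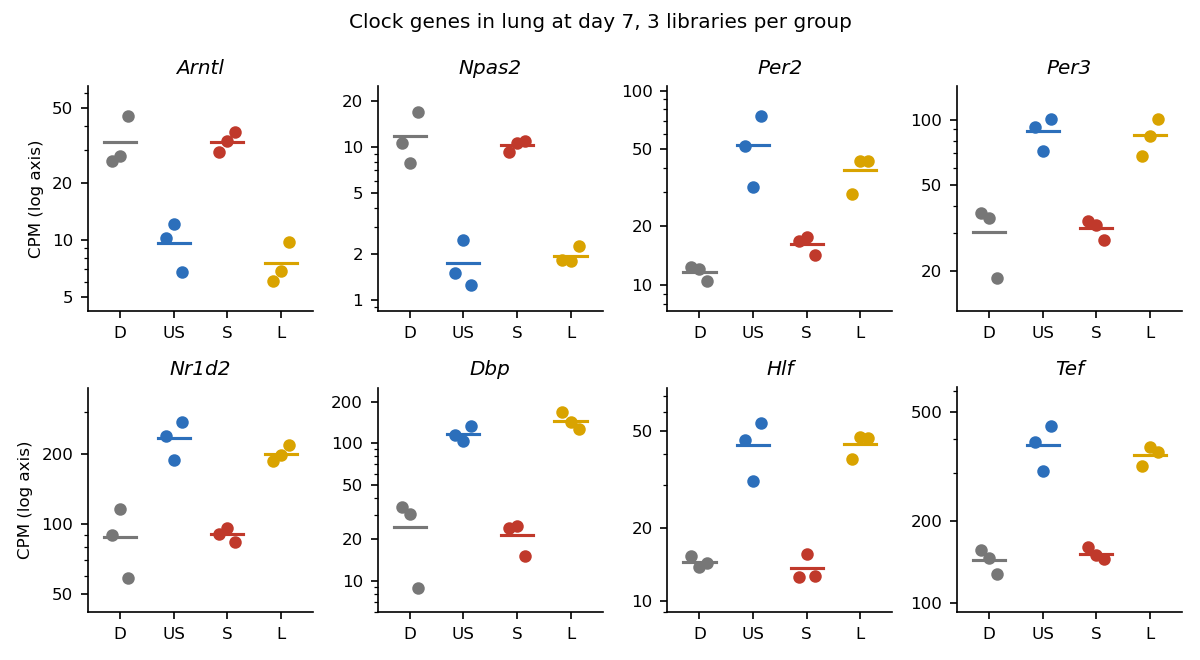
CPM of the 8 called clock genes at day 7, on log axes. Points are libraries and lines are group means of 3 libraries. S lies with D and apart from US in every panel, and US lies near L.

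The promoters of the 4 clock genes with the smallest p are shown so that the binding letters of the factors named above can be looked for in them. They are RefSeq windows in GRCm38.p6, from 250 bases before the start site to 50 after it, written 5′ to 3′ on the strand of the gene. Capitals mark every match on either strand to CACGTG (E-box, bound by BMAL1 with its partner), TTACGTA or TTATGTA (core of the D-box, bound by DBP, HLF and TEF), TGACGTC (cAMP response element), TAGGTCA (core of the REV-ERB site), CACACCC (a KLF site), TGACTCA or TGAGTCA (AP-1) and GGGACTT (start of an NF-kB site).
Hlf, chr11:90390868-90391167, minus strand: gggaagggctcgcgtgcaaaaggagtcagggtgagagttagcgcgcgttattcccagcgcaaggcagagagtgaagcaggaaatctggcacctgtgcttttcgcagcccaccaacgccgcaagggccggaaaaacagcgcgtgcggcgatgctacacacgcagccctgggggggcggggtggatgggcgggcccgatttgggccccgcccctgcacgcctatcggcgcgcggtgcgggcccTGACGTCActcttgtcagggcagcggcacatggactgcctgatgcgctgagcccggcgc
Npas2, chr1:39194022-39194321, plus strand: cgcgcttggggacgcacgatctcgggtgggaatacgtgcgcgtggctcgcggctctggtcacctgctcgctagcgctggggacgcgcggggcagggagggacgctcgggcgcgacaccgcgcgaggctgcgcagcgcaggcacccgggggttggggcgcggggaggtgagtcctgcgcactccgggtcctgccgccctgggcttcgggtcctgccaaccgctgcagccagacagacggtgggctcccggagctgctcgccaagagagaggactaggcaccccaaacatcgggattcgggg
Tef, chr15:81802423-81802722, plus strand: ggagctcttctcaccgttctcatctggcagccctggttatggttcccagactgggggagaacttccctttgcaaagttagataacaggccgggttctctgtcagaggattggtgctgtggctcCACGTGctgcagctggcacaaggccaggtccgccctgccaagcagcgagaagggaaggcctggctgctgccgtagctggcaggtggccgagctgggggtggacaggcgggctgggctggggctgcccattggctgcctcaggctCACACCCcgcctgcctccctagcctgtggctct
Per3, chr4:151044616-151044915, minus strand: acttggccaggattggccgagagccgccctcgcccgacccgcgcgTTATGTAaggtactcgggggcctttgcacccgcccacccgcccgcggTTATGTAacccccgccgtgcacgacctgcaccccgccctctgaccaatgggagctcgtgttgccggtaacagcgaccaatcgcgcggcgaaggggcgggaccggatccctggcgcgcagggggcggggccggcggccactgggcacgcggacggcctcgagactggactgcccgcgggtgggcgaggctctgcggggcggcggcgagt

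The Tef window held 1 E-box before the start site and 1 KLF site. The Per3 window held 2 D-box cores, beginning 205 and 158 bases before the start site. In the Hlf window the capitals mark a cAMP response element read on both strands, which overlap, beginning 9 bases before the start site. The Npas2 window held none of these letters. Of 32851 such windows in the table, 7.15% held an E-box, 3.09% a D-box core, 3.21% a cAMP response element, 7.95% a KLF site and 2.61% the core of the REV-ERB site. A window was found for 18 of the 24 called genes, 7 of them clock genes. Among the 7, an E-box was found in 1, a D-box core in 1 and the REV-ERB core in 0. The 2 called genes whose windows held that core were Leo1 and Tjp3. For each called gene only the window nearest to its annotated start was searched, while the 32851 windows include every window of a gene. Tef, Arntl, Tjp3, Sspn and Pfkfb3 had 2 windows each and Gjb1 had 4, so their other windows are not covered. Only exact matches to the letters were counted, so a window without a match, such as that of Arntl, may still hold a site with other letters. These matches are descriptions of the letters and show no binding.

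The same genes were measured in D and L lungs of day 7. Over the 24 called genes, the S mean was nearer to the D mean than the US mean was in 21, and the US mean was nearer to the L mean in 23. These genes were chosen for their S minus US difference. The same counts over all genes tested are not given here, so the 2 counts describe the called genes only. The summed CPM of the clock list was 706 to 829 in D and 1390 to 1640 in L. For Hlf, S minus D was -0.13 ± 0.19 and US minus D was 1.58 ± 0.19. For Npas2 these were -0.24 ± 0.28 and -2.78 ± 0.32, and for Dbp -0.24 ± 0.49 and 2.22 ± 0.50. The comparisons of S with US, of S with D and of US with D share libraries in pairs, and the values are therefore given side by side only.

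Cxcl5 was higher in S than in any other group of the day. Its level was 2.97, 16.7 and 17.5 CPM in the S libraries and 0.183, 0.629 and 1.07 CPM in the US libraries, which rest on 4, 11 and 22 counts. S replicate 1 was the lowest of the S libraries and still lay above every US library. Cxcl5 rose 19.6-fold (4.30 ± 0.77, adjusted p = 0.00759). In D the gene lay at 0.637 to 0.807 CPM and in L at 0.42 to 0.589 CPM, and S minus D was 4.10 ± 0.76 (adjusted p = 0.0103). Cxcl5 lost its call without US replicate 1 (adjusted p = 0.0918), in the fit of only the 2 groups and in limma on log2(TPM + 0.1), with an adjusted p of up to 0.172.

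Cxcl5 was 1 of 12 tested genes in the list of neutrophil-attracting chemokines and acute cytokines, and no other was called (median log2 difference 0.17). Tnf, an early inflammatory cytokine, lay at 1.28 to 2.74 CPM in S and 0.962 to 1.54 CPM in US (0.87 ± 0.39, adjusted p = 0.344). The 2 members with the highest CPM, Cxcl15 and Il1b, differed by 0.23 ± 0.18 and -0.20 ± 0.33. Of 17 chemokine and receptor genes for monocytes, lymphocytes and dendritic cells none was called, 3 being higher at an unadjusted p under 0.05. Ccl20, which draws cells that carry CCR6, was at 1.95, 7.09 and 7.39 CPM in S and 0.366 to 2.2 CPM in US (2.21 ± 0.68, adjusted p = 0.236), with S replicate 1 again the lowest of its group. Of the markers of neutrophils themselves, 2 of 13 tested had a difference above 0, the median difference was -0.54, edgeR called none, and 2 were higher and 1 lower at an unadjusted p under 0.05. Hdc, the histidine decarboxylase that makes histamine and the most abundant member, was at 142.1, 160.9 and 207.1 CPM in S and 104.5, 127.8 and 119.3 CPM in US without overlap (0.51 ± 0.14, adjusted p = 0.153), and DESeq2 called it as higher (adjusted p = 0.0421). S100a9, a neutrophil calcium-binding protein and the next in abundance, differed by -0.74 ± 0.39 and lay at 47.0 to 76.5 CPM in S and 42.3 to 181 CPM in US. The summed CPM of that list was 321 to 463 in S and 314 to 552 in US.

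Of the called genes outside these lists, 8 were higher in S. Avpr1a, the receptor for vasopressin V1a, was at 3.03, 3.34 and 4.06 CPM in S and 0.504, 0.572 and 0.534 CPM in US (10 to 11 counts per US library). It rose 6.32-fold (2.66 ± 0.33, adjusted p = 5.06e-05), and D lay at 2.21 to 3.64 CPM. Rasl11a, a small GTPase of the Ras family, was at 26.3, 24.5 and 26.8 CPM in S and 9.34, 11 and 6.02 CPM in US, and rose 2.90-fold (1.53 ± 0.25, adjusted p = 0.0016). Both kept their call in all 16 alternative fits, and neither overlapped between the groups.

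Leo1, a subunit of the PAF1 complex that travels with RNA polymerase, was at 22.2, 20.4 and 20.1 CPM in S and 11.8, 13.7 and 8.79 CPM in US. It rose 1.80-fold (0.85 ± 0.13, adjusted p = 0.000916) and lost the call in the fits of day 7 alone and of the 2 groups alone (highest adjusted p = 0.106). Tjp3, a scaffold of tight junctions, was at 19.4, 23.1 and 28.0 CPM in S and 10.3, 10.6 and 13.4 CPM in US (2.02-fold, 1.01 ± 0.18, adjusted p = 0.00898). Gjb1, the gap junction protein connexin 32, was at 2.97, 3.82 and 5.01 CPM in S and 1.56, 1.72 and 1.46 CPM in US (2.46-fold, 1.3 ± 0.28, adjusted p = 0.0409). Tjp3 lost its call without S replicate 3, without US replicate 1 and in the fit of the 2 groups alone (adjusted p up to 0.12), and Gjb1 kept its call in 1 of the 6 fits that left out a library. The remaining genes higher in S were Ccnjl, a cyclin-like gene (2.10-fold), 5430416O09Rik (1.97-fold) and Ccdc184 (2.32-fold). They kept their calls in 2, 3 and 2 of those 6 fits.

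Of the called genes lower in S, 7 lay outside the clock list. Pfkfb3, an enzyme that sets the pace of glycolysis, was at 73.9, 84.5 and 70.4 CPM in S and 192.3, 105.6 and 186.4 CPM in US. It fell 2.16-fold (-1.11 ± 0.22, adjusted p = 0.0245), with US replicate 2 the closest to S. Tex11, a gene known from meiosis, was at 3.23, 3.65 and 4.78 CPM in S and 8.43, 8.64 and 10.4 CPM in US, and fell 2.40-fold (-1.26 ± 0.22, adjusted p = 0.00391). Rasd2, a small GTPase of the Ras family, fell 2.35-fold (-1.23 ± 0.24, adjusted p = 0.0173). Smaller falls were those of Gpr155, a membrane protein (1.53-fold), Lonrf1, a protein with a RING finger (1.47-fold), Sspn, a partner of the dystrophin complex (1.45-fold), and Fam76a (1.33-fold). Fam76a is the smallest change of the 24 and is named so that all called genes are given. Of these 7 genes, Tex11 kept its call in 4 of the 6 fits that left out a library and the others in 1 or 2.

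In GRCm38 the called genes are spread over many chromosomes, and the spans given here are whole annotated genes with their exons and introns. Hlf (ENSMUSG00000003949) spans chr11:90336536-90390895, Tef (ENSMUSG00000022389) chr15:81802421-81826863, and Per3 (ENSMUSG00000028957) chr4:151003652-151044665. Arntl (ENSMUSG00000055116) spans chr7:113207465-113314126, Nr1d2 (ENSMUSG00000021775) chr14:18204054-18239127, and Per2 (ENSMUSG00000055866) chr1:91415982-91459324. Avpr1a (ENSMUSG00000020123) spans chr10:122448499-122453452 and Rasl11a (ENSMUSG00000029641) chr5:146845071-146847726. Of the 24 genes, 10 overlap another annotated gene, 9 of them on the opposite strand. Dbp shares 737 bases with Sphk2 and Tef 193 bases with the antisense gene Gm17597, and Per3 lies within the span of Camta1 on the same strand. Reads of such overlaps cannot be assigned to 1 gene with certainty, since no source used here gives the strand setting of the counting.

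The difference between S and US was not the same on the other days. The calls of day 7 did not compare the S and US libraries of days 1 and 28. Those libraries entered its fit through the shared spread, the filter on low counts and the normalisation. At day 1 the edgeR test called 3 genes (0.0177%), 1 higher in S (0.00592%) and 2 lower (0.0118%). At day 28 it called 0, with 920 genes (5.44%) at an unadjusted p under 0.05, and no other tool was run on these 2 days alone. None of the 24 genes of day 7 was called on either day. Of those 24, 1 had the same sign at day 1 as at day 7 (Pfkfb3) and 4 had it at day 28. Hlf was at 65.1, 43.3 and 38.8 CPM in S and 32.3, 23.5 and 25.1 CPM in US at day 1, the reverse order of day 7. At day 28 it was at 16.7, 18.4 and 13.6 CPM in S and 16.5, 16.4 and 11.7 CPM in US, and the groups overlapped. Npas2 at day 28 was at 12.3, 14 and 13.6 CPM in S and 25.5, 28.2 and 22.3 CPM in US, again the reverse of day 7.

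Tested as an interaction, the S minus US difference of day 7 differed from that of day 1 in 672 genes (3.98%), 480 with the higher value at day 7 (2.84%) and 192 with the lower (1.14%). It differed from that of day 28 in 20 genes (0.118%), 13 higher (0.0769%) and 7 lower (0.0414%). Of the 24 genes called at day 7, 23 passed the first test and 15 the second, which is no independent evidence since they were chosen for their difference at day 7. In the clock list 2 members passed as higher (Npas2 and Arntl) and 7 as lower against day 1, and 2 and 5 against day 28. Other lists had members that passed against day 1 too. Higher were 5 of 16 NF-kB feedback genes, 5 of 20 genes of oxidative phosphorylation, 3 of 14 regulators of multiciliated cells, and Trem2 and Apoe, with 0 lower in these lists. Also higher were C1qa, C1qb and C1qc, 3 of 16 markers of monocytes and interstitial macrophages, and Jund, Junb and Ier2, 3 of 23 immediate early genes. The remaining list members that passed as higher were Cxcl5, Ccl3, Hp, Tff2, Mt1, Cdkn1a, Sfn, Spon2, Loxl1, Rpl36 and Rps29. Outside the clock list Ednrb, Etv5 and Emp2 passed as lower. Against day 28 no list but that of the clock had a member that passed. The count of 672 genes against day 1 was carried by single libraries of both days. Leaving out S replicate 2 of day 1 left 15.6% of the count, S replicate 3 of day 1 left 17.9% and US replicate 2 of day 1 left 30.8%, and without US replicate 3 of day 1 there were 1109 genes. Of the day 7 libraries, leaving out S replicate 2 gave 235 genes and S replicate 3 gave 71, while US replicates 1, 2 and 3 gave 87, 1876 and 77 in turn. The count of 20 genes against day 28 fell to 10 and 13 when S replicates 2 and 3 of day 28 were left out in turn. It fell to 9 and 12 for US replicates 1 and 2 of that day. For S replicates 2 and 3 and US replicate 3 of day 7 it was 12, 11 and 7.

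Cxcl5 was among the genes that differed from day 1 (6.28 ± 1.01, adjusted p = 0.000995). At day 1 it was at 0.051, 4.71 and 5.95 CPM in S and 10.3, 11.4 and 20.4 CPM in US, so that at day 1 the US lungs and at day 7 the S lungs held the more. S replicate 1 of day 1 was far below the other S libraries of that day. At day 28 it lay at 0.815 to 1.20 CPM in S and 0.651 to 2.35 CPM in US.

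**Figure D3:**
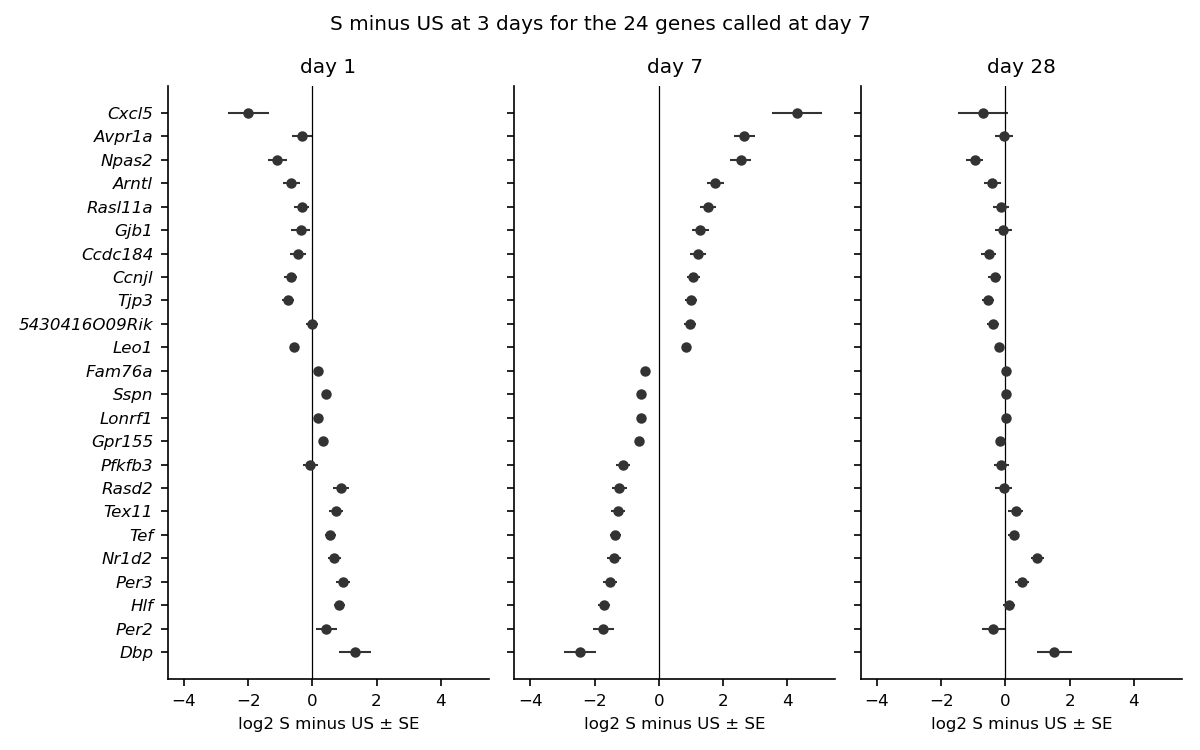
Fitted log2 difference S minus US at days 1, 7 and 28 for the 24 genes called at day 7, ordered by their value at day 7. Bars are ± 1 SE. At day 1 all genes but Pfkfb3 lie on the other side of 0 from day 7, 5430416O09Rik close to 0.

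Among the gene lists outside the clock and the chemokines, no member passed the threshold of the edgeR test in S against US. Most genes named from these lists were chosen after their values were seen, and they are given as values. Genes that macrophages raise when they take up lipid or particles leaned higher in S. Of 22 tested, 17 were above 0, beside 8281 of all 16903 genes tested. The median difference was 0.35, and 6 were higher and none lower at an unadjusted p under 0.05. The summed CPM of the list overlapped between the groups, at 6420 to 7830 in S and 5790 to 7270 in US. Trem2, a lipid receptor of macrophages, was at 19.4, 13.3 and 22.8 CPM in S and 5.68, 6.64 and 7.53 CPM in US without overlap (1.45 ± 0.34, adjusted p = 0.0796). Apoe, a carrier of cholesterol, was at 453, 375 and 553 CPM in S and 208, 219 and 270 CPM in US (0.96 ± 0.24, adjusted p = 0.126). DESeq2 called both as higher, with adjusted p of 0.00696 for Trem2 and 0.0227 for Apoe. Mmp12, the macrophage elastase, lay at 11.2 to 19.7 CPM in S, 5.08 to 8.21 CPM in US and 54.8 to 211 CPM in L (S minus US 1.22 ± 0.46, adjusted p = 0.293). The 2 members with the highest CPM, Cd36 and Ctsd, differed by -0.29 ± 0.16 and 0.46 ± 0.19.

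Markers of resident alveolar macrophages did not lean with them. Their median difference was -0.28 over 15 tested, 5 were lower and none higher at an unadjusted p under 0.05, and none was called. Krt79 lay at 13.6 to 22.0 CPM in S and 23.5 to 34.4 CPM in US (-0.58 ± 0.20, adjusted p = 0.28). Siglecf, a lectin of alveolar macrophages and eosinophils, lay at 21.1 to 24.1 CPM in S and 24.8 to 31.1 CPM in US (-0.28 ± 0.13). The 2 most abundant members, Chil3 and Car4, overlapped between the groups. Markers of monocytes and interstitial macrophages had a median of -0.04 with none of 16 called, but the list was split. Above 0 were 8 of 16, and 3 were higher and 2 lower at an unadjusted p under 0.05. The S libraries lay entirely above US in 4 and entirely below in 1, beside 11.1% and 5.79% of all genes. C1qa lay at 40.8 to 46.4 CPM in S and 21.6 to 31.9 CPM in US. C1qb lay at 53.4 to 69.4 and 29.2 to 42.6 CPM, and C1qc at 31.5 to 37.7 and 15.7 to 21.5 CPM.

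For the regulators of multiciliated cell formation, all 14 tested members had a difference above 0, with a median of 0.63, 6 of them at an unadjusted p under 0.05 and none called. Ccno, a cyclin-like factor needed to make the basal bodies of cilia, was at 4.26, 9.10 and 9.56 CPM in S and 1.92, 2.69 and 2.92 CPM in US (1.60 ± 0.35, adjusted p = 0.0522). Ccna1, a cyclin, was at 5.03, 9.63 and 8.97 CPM in S and 2.2, 2.80 and 4.32 CPM in US (1.32 ± 0.29, adjusted p = 0.0522). Both groups were apart in these 2 genes, with S replicate 1 the lowest of the S libraries. DESeq2 called both as higher, with adjusted p of 0.00427 for Ccno and 0.00605 for Ccna1. Foxj1, the master factor of motile cilia, was at 55.8, 89.4 and 104.3 CPM in S and 35.4, 50.0 and 60.9 CPM in US, which overlapped (0.75 ± 0.24, adjusted p = 0.243). The structural genes of cilia gave 9 of 14 above 0 and a median of 0.31, and the 2 most abundant, Sec14l3 and Tppp3, differed by -0.42 ± 0.15 and 0.50 ± 0.33. Their summed CPM was 1970 to 2280 in S and 1920 to 2580 in US.

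Genes of secretory airway cells and acute-phase genes had median differences of 0.49 (13 of 15 above 0) and 0.48 (13 of 16 above 0), with none called. Scgb3a1, a secretoglobin, was at 38.6, 71.9 and 180 CPM in S and 29.4, 33.0 and 17.7 CPM in US (1.85 ± 0.71, adjusted p = 0.3). Reg3g, an antibacterial lectin, was at 2.46, 3.61 and 17.7 CPM in S and 1.47, 1.09 and 0.534 CPM in US (2.90 ± 1.23, adjusted p = 0.327). S replicate 3 was the highest library in both. Scgb1a1 and Cyp2f2, the 2 most abundant members of the secretory list, overlapped between the groups (0.08 ± 0.21 and -0.14 ± 0.18). Lrg1, an acute-phase glycoprotein, lay at 38.2 to 78.4 CPM in S and 18.9 to 22.9 CPM in US (1.34 ± 0.42, adjusted p = 0.243).

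Genes of the basic machinery of the cell also had medians above 0. Of the cytosolic ribosomal protein genes 21 of 22 were above 0 (median 0.27, 1 higher and 0 lower at an unadjusted p under 0.05), and of the nuclear-encoded genes of oxidative phosphorylation 19 of 20 (median 0.24, 5 higher and 0 lower). None was called, and the 2 most abundant members of each (Rpsa and Rpl7, Atp5b and Cox4i1) overlapped between the groups. For each library the log2 CPM of the members, each less its mean over the 36 libraries, was averaged. For the ribosomal protein genes this was 0.05, 0.37 and 0.34 in S and -0.11, 0.20 and -0.18 in US, and for oxidative phosphorylation 0.02, 0.28 and 0.31 in S and -0.18, 0.16 and -0.31 in US. In both lists US replicate 2 lay within the range of S and the other US libraries below it. Their part in the medians above 0 of the macrophage, airway and cilia lists was not tested.

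**Figure D4:**
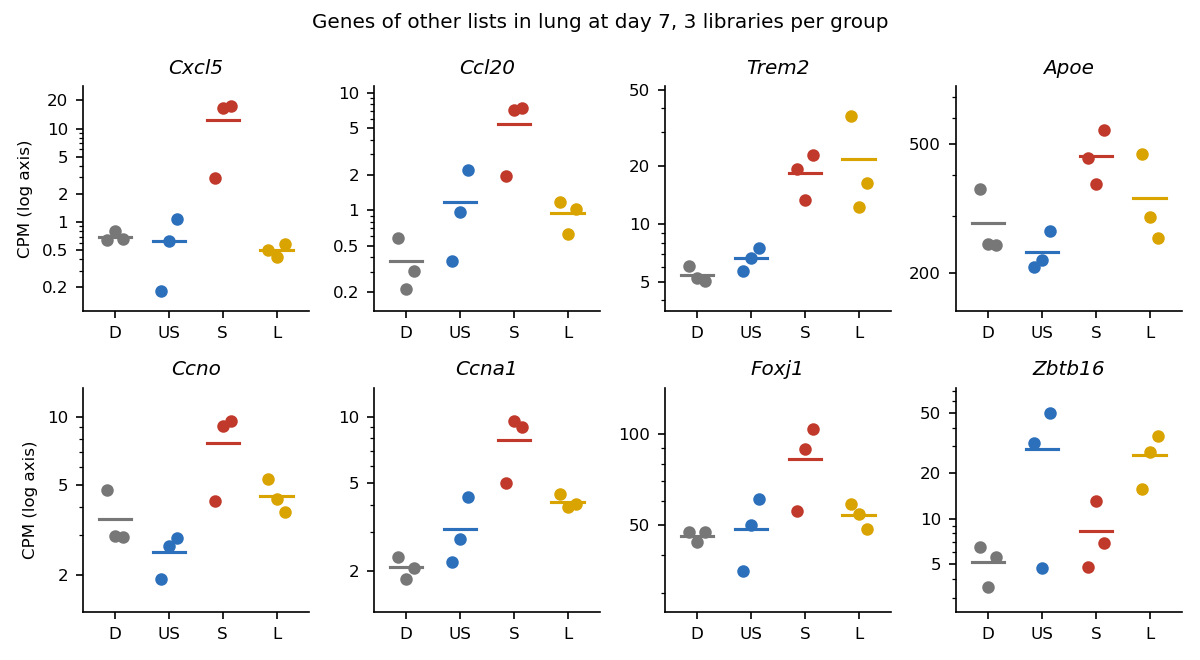
CPM at day 7 on log axes of Cxcl5 and 7 genes that were not called. Points are libraries and lines are group means of 3 libraries. S replicate 1, the leftmost S point, is the lowest of its group for Cxcl5, Ccl20, Ccno, Ccna1, Foxj1 and Zbtb16, and US replicate 2, the middle US point, lies far below the other US libraries for Zbtb16.

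The 16 genes that glucocorticoid hormones induce had a median difference of -0.14, with 8 of them above 0. Their log2 CPM, averaged as for the ribosomal protein genes, was -0.37, 0.09 and -0.1 in S and 0.3, -0.46 and 0.41 in US. By this average US replicate 2 lay apart from the other US libraries, but not every member followed. Cdkn1a, for example, was at 50.7, 64.4 and 59.1 CPM in US. Tsc22d3, a standard readout of these hormones, was at 112.1 to 160.4 CPM in S and 308, 154 and 295 CPM in US. Zbtb16, another such gene, was at 4.77, 13.1 and 6.94 CPM in S and 31.6, 4.69 and 49.7 CPM in US. Klf9 was at 75.8, 84.6 and 77.4 CPM in S and 176, 74.8 and 204 CPM in US. In Tsc22d3, Zbtb16 and Klf9 US replicate 2 lay within or below the range of S. Of the 16 genes, 0 were called in the comparison of all 6 libraries, with 6 lower and 1 higher at an unadjusted p under 0.05. Without US replicate 2, Klf9 (-1.29 ± 0.23, adjusted p = 0.00498) and Tsc22d3 (-1.22 ± 0.24, adjusted p = 0.0116) were called as lower. Counting the list in that fit was decided after the values were seen, and the fit rests on 2 US libraries. With all libraries, DESeq2 called Tsc22d3 (adjusted p = 0.0249), Klf9 (0.0421) and Errfi1 (0.0479) as lower. In edgeR without US replicate 2 the clock list gave the same 2 higher and 6 lower genes as with all libraries. The part of US replicate 2 in the glucocorticoid values beyond these counts was not tested.

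Genes that NF-kB induces and that feed back on it had a difference above 0 in 11 of 16 tested, with a median of 0.23 and 7 without overlap between the groups, where 11.1% of all genes had the S libraries entirely above US. None was called. Relb, a subunit of NF-kB, was at 27.0, 28.7 and 30.7 CPM in S and 19.7, 24.5 and 20.7 CPM in US (0.39 ± 0.13, adjusted p = 0.253). Bcl3, a co-regulator of NF-kB, was at 11.9, 12.4 and 15.6 CPM in S and 7.05, 9.27 and 6.51 CPM in US (0.78 ± 0.24, adjusted p = 0.221). Icam1 and Nfkb1, the most abundant members, overlapped between the groups.

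The medians of the gene lists of the main lung cell types stood close to 0 in S against US. The median difference was 0.03 over 15 genes of alveolar type 2 cells, -0.10 over 12 of alveolar type 1 cells, -0.01 over 25 of endothelium, -0.09 over 15 of fibroblasts and pericytes and 0.08 over 11 of smooth muscle, and none was called. At an unadjusted p under 0.05, 4 alveolar type 1 genes were lower and 0 higher, and 4 endothelial genes were higher and 3 lower. Alveolar type 2 genes gave 1 higher and 1 lower, and fibroblasts and pericytes 0 and 2. Over all genes 6.25% were higher and 6.9% lower. Interferon-stimulated genes had a median of -0.09 over 21, T and NK cell markers -0.11 over 23 and B and plasma cell markers -0.04 over 19. Above 0 were 9, 4 and 7 genes of these 3 lists in turn, and 0 had an unadjusted p under 0.05. Of other tissue that a lung piece can hold, cardiomyocyte genes summed to 70.4 to 232 CPM in S and up to 162 CPM in US, and fat cell markers to 85.2 to 110 CPM in S and 68.6 to 88.5 CPM in US. Myh6, a myosin of heart muscle, was at 4.21, 11.5 and 43.6 CPM in S and 26.6, 17.8 and 22.1 CPM in US, so that S replicates 1 and 3 were the extremes. Epx, an eosinophil gene, was at 0 in all 6 libraries. In the same list Prg2 lay at 0 to 0.515 CPM and Ccr3 at 0.6 to 1.4 CPM, so the value of Epx alone does not show that eosinophils were absent. Cell division genes were above 0 in 18 of 20 with a median of 0.43, and S replicate 1 was the highest library in Mki67, a marker of dividing cells (69.3 CPM against 28.8 and 22.7 CPM in the other S libraries and 25.1 to 39.4 CPM in US). The part of these tissue differences between libraries in the results above was not tested.

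**Figure D5:**
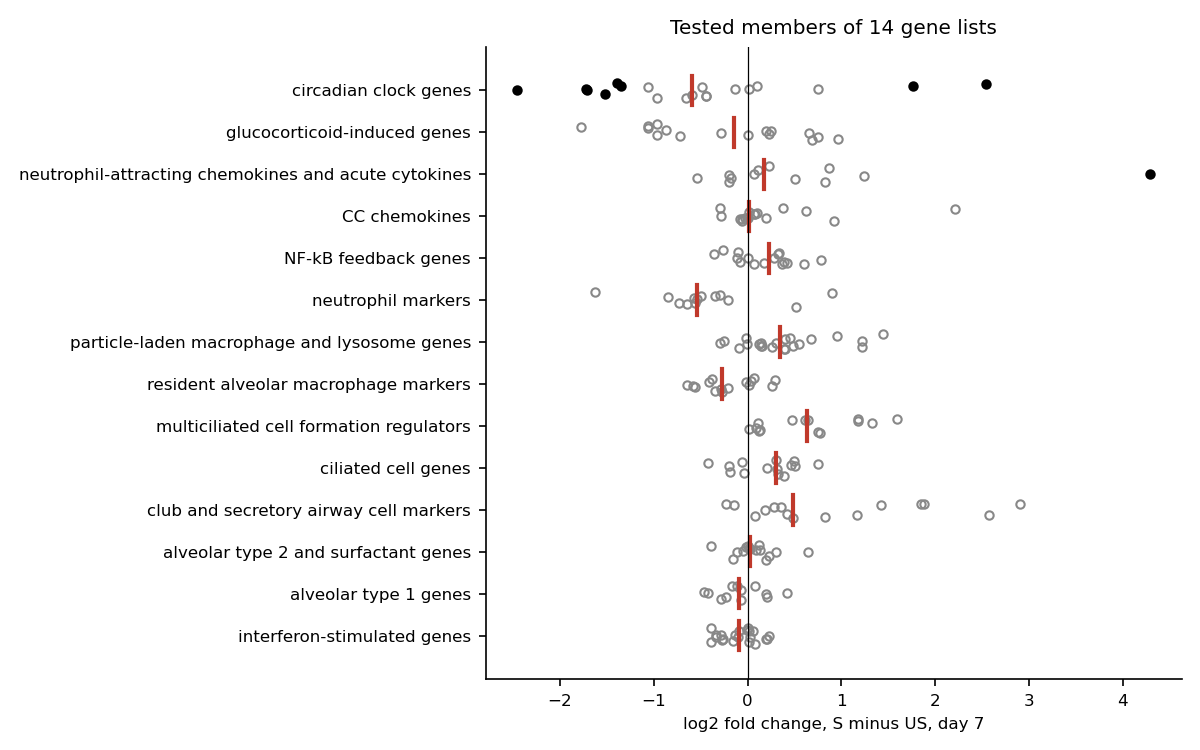
Log2 difference S minus US at day 7 of each tested member of 14 gene lists. Filled points passed the threshold (8 clock genes and Cxcl5), open points did not, and red lines are list medians, which run from -0.59 for the clock genes to 0.63 for the regulators of multiciliated cells.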

How the data were processed

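Lung RNA of 36 libraries in 12 groups of 3 was measured with a stranded polyadenylated RNA kit, per the labels' protocols. Tools named in the submitters' processing notes, without roles, are STAR 2.5.1b, featureCounts 1.5.1 and StringTie 1.3.3, and builds GRCm38 and GRCh37. The table that the authors deposited holds raw counts of 46078 Ensembl genes, used as they stand. Per the file headers, the authors' StringTie tables also hold coverage (a mean read signal), FPKM and TPM, of which TPM served in an alternative. Gene spans were taken from GENCODE M21 (45229 genes matched) and promoters from RefSeq.

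Genes were filtered with filterByExpr over the 12 groups (16903 left), normalised with TMM, whose factors ran from 0.9322 to 1.059, and modelled with edgeR 4.0.16 (R 4.3.3) with 1 mean per group and all 36 libraries sharing the estimate of the spread. Each contrast had a quasi-likelihood F test (two-sided), adjusted by Benjamini-Hochberg over all genes tested, threshold 0.05. S minus US of day 7 was also compared with that of days 1 and 28 as an interaction. Total counts ran from 16154696 to 23808264 in 35 libraries, so 1 CPM rested on 16.2 to 23.8 counts there and on 80.6 in S day 7 replicate 2. CPM used library totals. The procedure was tested on simulated data.

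Named genes were called genes without overlap between groups and with a mean of at least 1 CPM, the 12 largest and the 12 smallest fold changes, with up to 3 called members of each of 41 gene lists and, of a list described, its 2 most abundant members. The comparison, the lists and the rules were chosen with earlier results of these data known. Of 654 list entries 651 were in the count table.

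Alternatives were DESeq2 1.42.0, its size factors (RLE) in edgeR, no filter, a replicate block, only the groups compared, only day 7, limma 3.58.1 on log2(TPM + 1), where genes needed a mean of 1 TPM or more, with a pseudocount of 0.1 or without the filter, thinned counts of S day 7 replicate 2, and each library left out. List counts with DESeq2 and without US day 7 replicate 2, and the motif TAGGTCA, were added after seeing the data.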

Additional observations from a re-analysis of the deposited data

Results flagged for a closer look

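The S minus US difference of day 7 was not that of the other days, by a test of the difference itself. Against day 1, 672 genes passed, among them 23 of the 24 genes called at day 7, which were chosen for their value at day 7. In log2 units (day 7 minus day 1) the values above 0 were Cxcl5 6.28, Npas2 3.63, Avpr1a 2.97, Arntl 2.42, Rasl11a 1.87, Tjp3 1.76, Ccnjl 1.75, Ccdc184 1.67, Gjb1 1.66, Leo1 1.41 and 5430416O09Rik 0.99. Those below 0 were Dbp -3.78, Hlf -2.55, Per3 -2.47, Per2 -2.16, Rasd2 -2.13, Nr1d2 -2.07, Tex11 -2.0, Tef -1.91, Sspn -0.97, Gpr155 -0.95, Lonrf1 -0.72 and Fam76a -0.59.

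Against day 28, 20 genes passed, 15 of them among the same 24. The values above 0 (day 7 minus day 28, log2) were Npas2 3.50, Avpr1a 2.71, Arntl 2.16, Ccdc184 1.73, Rasl11a 1.67, Tjp3 1.56, Ccnjl 1.41, 5430416O09Rik 1.36 and Leo1 1.04. Those below 0 were Dbp -3.98, Nr1d2 -2.39, Per3 -2.04, Hlf -1.82, Tef -1.61 and Tex11 -1.59. The 2 comparisons share the S and US libraries of day 7.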

How the results depend on the processing

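The 24 genes called in S against US at day 7 became 91 with DESeq2, 14 with limma on log2(TPM + 0.1), 13 with the libraries of day 7 alone and 9 with the 2 groups alone, and 11 to 75 when a library was left out. The 672 genes of the comparison of day 7 with day 1 became 1281 with DESeq2, 266 with limma on log2(TPM + 1), 440 with only the groups compared and 71 to 1876 when a library was left out. The 20 genes of the comparison with day 28 became 66 with DESeq2, 35 without the filter on low counts, 97 with only the groups compared and 7 to 29 when a library was left out. With a replicate block within each day the counts were 19, 251 and 12. Replicate numbers were shared by S and US. Deviations from the group mean correlated at 0.184, 0.183 and 0.048 between same-numbered libraries of day 7 and at -0.213 to 0.098 between the others. These values do not settle if the numbers pair the samples, and the main fit treated the samples as unpaired. The other settings kept each count within 1.5 times: RLE gave 25, 679 and 21, and the thinned S replicate 2 gave 27, 625 and 17. The causes of these changes were not tested. Of the 24 genes, none changed sign in any of the 16 alternatives, and calls kept ran from 4 of 16 (Fam76a) to 16 of 16 (Hlf, Avpr1a, Npas2, Per3, Nr1d2, Arntl and Rasl11a). A gene that missed the threshold with 3 libraries per group is not shown to be at equal levels. For genes near 1 CPM the counts themselves, 16.2 to 80.6 per library, limit the precision.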
